A study of Mus musculus with 6 samples.

Results

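Erythroid genes are the genes by which red cell precursors make haem, take up iron and build their membrane, and the transcription factors that drive them. Alas2, Klf1, Gata1, Rhag, Slc4a1 and Tfrc were taken by symbol from the deposited tables. All 6 have a line among the 24062 genes of the normalised count table, and 2 of them, Alas2 and Tfrc, among the 4939 genes of the CPM table, where reads are scaled to a common library size. RNA came from cells of adult C57BL/6 mouse hind-limb muscle, sorted on tdTomato, a red fluorescent protein that CreERT2 recombinase switches on after tamoxifen. All mice had 3 tamoxifen treatments 10 days before harvest. Labelled (Tw2pos, n = 2) and unlabelled (Tw2neg, n = 2) cells came from Tw2-CreERT2/+;R26-tdTO+ mice. Labelled (Pax7pos, n = 1) and unlabelled (Pax7neg, n = 1) cells came from Pax7-CreERT2/+;R26-tdTO+ mice. All groups thus carry the reporter and 1 CreERT2 allele and received the drug. Twist2 drives the recombinase in mesenchymal cells and Pax7 in satellite cells, the stem cells of muscle, so the unlabelled fractions hold whatever else the digested tissue released. The labels do not say whether libraries came from separate or pooled animals. P-values therefore cover no more than the scatter among these libraries, and that scatter may be technical.

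Red cells arise in bone marrow and spleen, not in muscle. There the zinc finger factor Gata1, and after it Klf1, switch on genes of haem synthesis, of the red cell membrane and of globin. Alas2 encodes the erythroid form of the first enzyme of haem synthesis, 5-aminolevulinate synthase. Slc4a1 (band 3) exchanges chloride for bicarbonate across the red cell membrane, and Rhag is a membrane glycoprotein of the Rh complex. Tfrc, the transferrin receptor, brings iron into erythroid cells in bulk, but dividing cells of other kinds carry it too.

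Promoter sequences are shown because Gata1 and Klf1 act through such DNA. Whether these letters bear on the levels given below was not tested. RefSeq (GRCm38.p6) windows were matched for 5 of the 6 genes. Slc4a1 has no sequence shown. Each stretch ends before the RefSeq start, or before the GENCODE gene start where that lies just upstream of it. Capitals mark, on either strand, a match to A or T followed by GATAA or GATAG, the letters that GATA factors prefer. The stretches are chrX:150547225-150547374 (plus) for Alas2, chr8:84901778-84901927 (plus) for Klf1, chr17:40810976-40811125 (plus) for Rhag, chrX:7967911-7968060 (minus) for Gata1 and chr16:32608746-32608895 (plus) for Tfrc.
Alas2: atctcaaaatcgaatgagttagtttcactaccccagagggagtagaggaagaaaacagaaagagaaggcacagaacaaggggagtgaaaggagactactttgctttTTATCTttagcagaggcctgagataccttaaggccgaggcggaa
Klf1: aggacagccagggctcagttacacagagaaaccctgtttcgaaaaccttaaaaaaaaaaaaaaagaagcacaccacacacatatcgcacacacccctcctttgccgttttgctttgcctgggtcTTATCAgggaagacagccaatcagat
Rhag: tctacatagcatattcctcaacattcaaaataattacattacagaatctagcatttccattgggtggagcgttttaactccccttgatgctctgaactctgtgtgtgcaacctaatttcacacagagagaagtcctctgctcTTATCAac
Gata1: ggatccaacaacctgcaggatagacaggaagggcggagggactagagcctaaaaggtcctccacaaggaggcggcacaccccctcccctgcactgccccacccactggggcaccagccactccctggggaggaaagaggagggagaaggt
Tfrc: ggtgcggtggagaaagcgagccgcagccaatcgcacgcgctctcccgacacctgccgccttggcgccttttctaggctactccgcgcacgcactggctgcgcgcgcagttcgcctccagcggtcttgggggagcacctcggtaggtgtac
Over the 250 bases before the RefSeq start, Alas2, Klf1 and Rhag held 1 GATA match each, and Gata1 and both Tfrc windows held 0. Of all 32851 promoter windows of that length, 26.5% held a match. Counted from the RefSeq start, the match lay 86 to 81 bases before it in Alas2, 80 to 75 in Klf1 and 31 to 26 in Rhag. The spelling CCNCNCCC, which Klf factors can bind, matched in Alas2, Gata1 and Tfrc, in part at overlapping positions and, in Alas2 and Tfrc, outside the stretches shown or across their edge. It matched in 45.9% of all windows. CpG pairs numbered 25 and 23 in the Tfrc windows, against 4 in Alas2, 3 in Klf1, 2 in Gata1 and 1 in Rhag, where the median window had 6. A match is a run of letters in this window, not a measured binding site.

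Reads in genes ranged from 10902318 to 13205751 over the Twist2 libraries. The CPM table held 6016469 reads of Pax7pos and 7565797 of Pax7neg. Twist2 had 99.4 and 222 normalised counts in Tw2pos, against 22.0 and 23.2 in Tw2neg, with no overlap. The Pax7 transcript reached 303 CPM in Pax7pos, against 0.402 CPM in Pax7neg. Of 12 interstitial fibroblast markers tested, 10 rose in Tw2pos, and all 10 leukocyte markers fell there.

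All 6 genes were lower in both Tw2pos libraries than in either Tw2neg library, the pattern that 35.3% of all 18503 genes with a read also showed. Alas2 and Slc4a1 differed most on the log2 scale and Tfrc least among the 3 genes abundant enough to test. Gata1 and Rhag had no read in either Tw2pos library.

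Alas2 (GRCm38 chromosome X, 150547375 to 150570638, plus strand) had 33.1 and 13.3 normalised counts in Tw2pos, against 953 and 776 in Tw2neg. These came from 26 and 11 reads in Tw2pos and from 1172 and 971 reads in Tw2neg. The lowest Tw2neg library stood 23.4 times above the highest Tw2pos library. The means were 23.2 ± 14.1 in Tw2pos and 865 ± 125 in Tw2neg (SD, n = 2 each), and the log2 fold change was −5.29 (SE 0.44, limma adjusted p = 0.000896). The 95% counting intervals of the Tw2pos libraries, 21.7 to 48.6 and 6.62 to 23.7 normalised counts, overlapped.

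Slc4a1 (chromosome 11, 102348824 to 102366203, minus strand) had 17.8 and 6.03 normalised counts in Tw2pos, from 14 and 5 reads. In Tw2neg it had 412 and 305, from 507 and 382 reads. The groups again did not overlap, and in both groups replicate 1 was the higher library, as for Alas2. The means were 11.9 ± 8.36 in Tw2pos and 359 ± 75.6 in Tw2neg (SD, n = 2 each). The log2 fold change was −4.95 (SE 0.52, limma adjusted p = 0.00185).

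Tfrc (chromosome 16, 32608920 to 32632794, plus strand) had 277 and 330 normalised counts in Tw2pos, against 1053 and 1595 in Tw2neg. It remained well detected in labelled cells, with 217 and 274 reads. Here replicate 2 was the higher library in both groups, the reverse of Alas2 and Slc4a1. The means were 304 ± 38.1 in Tw2pos and 1324 ± 383 in Tw2neg (SD, n = 2 each). The log2 fold change was −2.10 (SE 0.25, limma adjusted p = 0.00268). The transferrin receptor was thus 4.36-fold lower in Tw2pos by the means, where Alas2 was 37.3-fold and Slc4a1 30.1-fold lower.

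Gata1 (chromosome X, 7959260 to 7978071, minus strand) had no read in either Tw2pos library, against 28 and 19 reads in Tw2neg, where it stood at 22.8 and 15.2 normalised counts. With a floor of 3 reads per library, it was at least 5.10-fold lower in Tw2pos. Rhag (chromosome 17, 40811126 to 40840754, plus strand) also had no read in Tw2pos and had 20 and 19 reads in Tw2neg, or 16.3 and 15.2 normalised counts. It was at least 4.23-fold lower by the same floor. Among 13418 genes with 15 or more reads in each Tw2neg library, 45 (0.335%) had no read in Tw2pos. The limit was chosen after these values were seen and has no upper bound. The share therefore does not describe genes as low as Gata1 and Rhag. Klf1 (chromosome 8, 84901928 to 84905291, plus strand) had 0 and 1 reads in Tw2pos and 6 and 12 in Tw2neg. Its pooled ratio of Tw2neg to Tw2pos was 11.7, with a 95% counting interval of 1.85 to 488. The floor of 3 reads stands at 3.82 normalised counts in Tw2pos replicate 1 and 3.62 in replicate 2, so the absence of Gata1 and Rhag is not shown.

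Of the 6 genes, 3 averaged at least 10 normalised counts over the libraries and entered the test: Alas2, Slc4a1 and Tfrc. Each of these also averaged more than 10 in Tw2pos alone. All 3 fell, in a comparison where 20.0% of 14155 genes were called lower and 18.7% higher. With library total scaling the split of calls moved to 5257 lower of 6864, against 2825 of 5470, and the same 3 were called. Gata1, Rhag and Klf1 stayed below that filter. Without it, limma called all 6 lower, against 13.8% of 18503 genes, with adjusted p = 0.00767 for Gata1, 0.00747 for Rhag and 0.0479 for Klf1. With both Tw2pos values at 0, Gata1 and Rhag show no scatter in that group. The pseudocount sets the size of their fall there, at −4.29 and −4.06 in limma. On the recovered reads without a filter, a setting added after the data were seen, edgeR called 5 of 6 lower, against 14.8% of genes. There Klf1 did not pass (edgeR adjusted p = 0.0876), while Gata1 (0.0138) and Rhag (0.0150) did. In bulk samples, fewer cells of a type and less RNA per cell cannot be told apart.

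**Figure D1:**
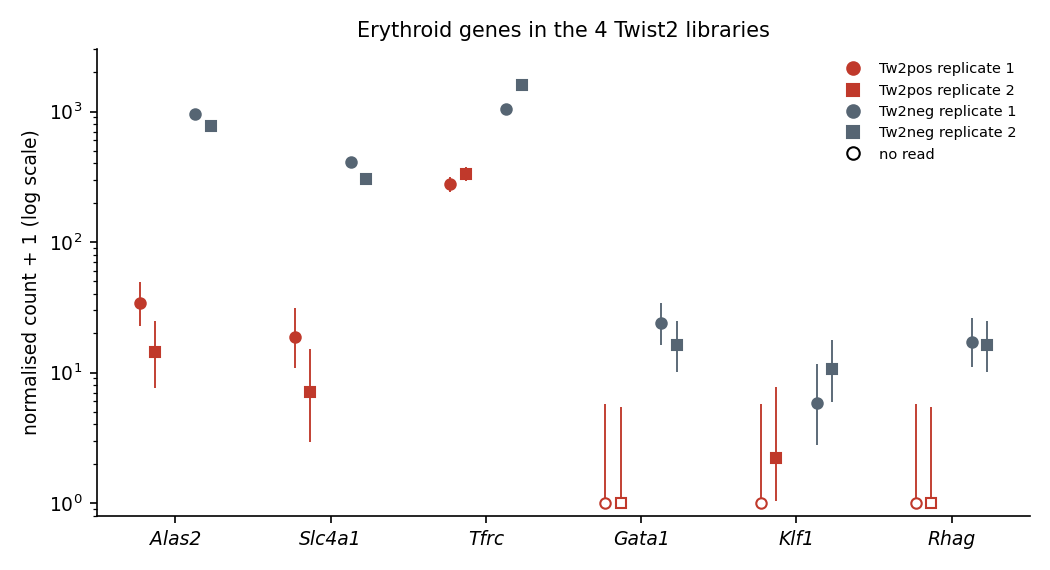
Normalised count plus 1 (log scale) of the 6 genes in each Twist2 library, with red for Tw2pos and grey for Tw2neg, circles for replicate 1, squares for replicate 2, open symbols for no read and bars for 95% counting intervals. Every Tw2neg point lies above both Tw2pos points of its gene, and the Klf1 intervals of the groups overlap.

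Levels per length place the genes on 1 scale. Divided by the length of all exons, Alas2 was the highest in Tw2neg at 360 normalised counts per kb, followed by Tfrc at 214 and Slc4a1 at 73.4. Alas2 (397 and 323) and Tfrc (170 and 258) did not overlap between Tw2neg libraries. The regulators and Rhag were far lower in Tw2neg, with 7.79 per kb for Gata1, 6.72 for Rhag and 4.73 for Klf1. The ranges of Gata1 (9.34 and 6.23) and Rhag (6.95 and 6.50) overlapped, and Klf1 (3.19 and 6.27) overlapped Gata1. In Tw2pos the order of the first pair turned: Tfrc had 49.1 per kb, Alas2 9.66, Slc4a1 2.44 and Klf1 0.394.

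Ratios of reads within a library need no scaling between libraries. Reads of Alas2 to Slc4a1 stood at 1.86 and 2.20 in Tw2pos, against 2.31 and 2.54 in Tw2neg. The 95% counting intervals in Tw2pos, 0.935 to 3.85 and 0.705 to 8.08, include both Tw2neg ratios, so no difference in this ratio was detectable at this depth. Reads of Tfrc to Alas2 stood at 8.35 and 24.9 in Tw2pos, against 1.10 and 2.05 in Tw2neg. The intervals were 5.54 to 13.1 and 13.7 to 50.5 in Tw2pos, and 1.02 to 1.20 and 1.90 to 2.22 in Tw2neg. They did not overlap between the groups. Nor did they overlap between replicates of either group, so replicates differed by more than counting error. In the other line, the ratio of Tfrc to Alas2 was 13.1 in Pax7pos and 4.47 in Pax7neg.

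**Figure D2:**
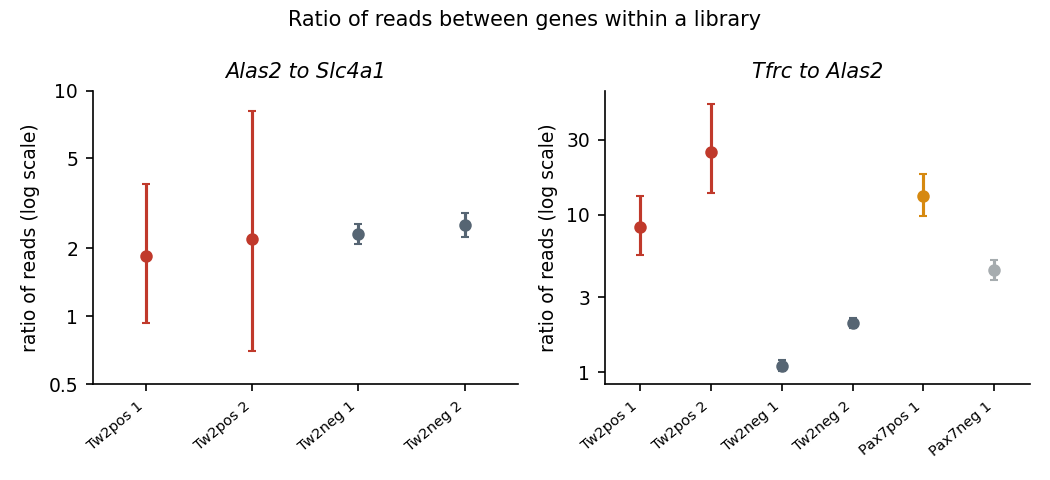
Ratio of reads between a pair of genes within each library (log scale), with Alas2 to Slc4a1 on the left and Tfrc to Alas2 on the right, and bars for 95% counting intervals. The ratio of Alas2 to Slc4a1 lies between 1.86 and 2.54 in the 4 Twist2 libraries, while that of Tfrc to Alas2 runs from 1.10 in a Tw2neg library to 24.9 in a Tw2pos library.

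The other erythroid genes did not move as one between Tw2pos and Tw2neg. In each of the lists of haem synthesis, transcription factors, membrane and other erythroid genes, at least 1 gene fell, at least 1 rose and at least 4 did not pass, and in haem synthesis 12 of 14 did not pass. The median log2 fold change of all tested genes was −0.04, and −0.49 with library total scaling, which lowers every list. The filter took the mean over all Twist2 libraries. A gene below it in Tw2pos could thus be tested only if it was high in Tw2neg. Nfe2, Myb, Slc14a1, Hemgn and Car1 are among such genes, and the lists of other cells hold more. That choice favours a lower level in Tw2pos, and the counts of genes that fell include these genes.

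Of 14 haem synthesis and transport genes, which many cell types express, 1 rose, 1 fell and 12 did not pass, with a median of −0.01. With library total scaling 0 rose and 6 fell, with a median of −0.46, close to that of all genes. The gene that rose was Fech, ferrochelatase, which inserts iron into the ring. It averaged 769 ± 32.8 normalised counts in Tw2pos and 410 ± 97.3 in Tw2neg (SD, n = 2 each), a log2 fold change of 0.92 (limma adjusted p = 0.0220), which did not pass with library total scaling (0.48) or without either Tw2pos library (adjusted p = 0.147 without replicate 1 and 0.117 without replicate 2). The gene that fell was Slc25a37, mitoferrin 1, the mitochondrial iron carrier of erythroid cells (log2 fold change −0.78, limma adjusted p = 0.0296). That call ended without Tw2pos replicate 1 (0.0884), Tw2pos replicate 2 (0.284) or Tw2neg replicate 2 (0.0710). Alas1, the form of the Alas2 enzyme found in all tissues, had 431 and 522 normalised counts in Tw2pos, against 625 and 628 in Tw2neg. Its log2 difference of −0.40 did not pass (limma adjusted p = 0.139), although it did with library total scaling (−0.85).

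Of 14 tested erythroid transcription factors and cofactors, 9 fell and 1 rose, with a median of −1.31. Nfe2, a leucine zipper factor of erythroid, megakaryocytic and myeloid cells, had 3 and 1 reads in Tw2pos and 300 and 315 in Tw2neg (log2 fold change −6.25, limma adjusted p = 0.000762). Myb, a factor of blood progenitors, had 2.55 and 9.65 normalised counts in Tw2pos, against 323 and 540 in Tw2neg (−6.09, adjusted p = 0.00148). Both genes averaged below the filter in Tw2pos and entered the test through Tw2neg, where they were high. Both are also used outside the red cell lineage. The abundant cofactors Ldb1 and Runx1 had log2 differences of −0.16 and 0.47 and did not pass, and of the 3 other scalings run Ldb1 passed with library total scaling (−0.61). The gene that rose was Sox6, a factor of late erythroid maturation, with 296 and 269 normalised counts in Tw2pos, against 180 and 112 in Tw2neg (0.99, adjusted p = 0.0401). Its call ended with library total scaling (0.165) and without Tw2pos replicate 1 (0.222), Tw2pos replicate 2 (0.167) or Tw2neg replicate 2 (0.0595). Gata2, which shares its DNA motif with Gata1 and is carried by mast and endothelial cells, had 39.5 and 55.5 normalised counts in Tw2pos, against 396 and 221 in Tw2neg. Gfi1b, a repressor of red cell and platelet precursors, had no read in Tw2pos and 9 and 13 reads in Tw2neg, and was too low to test.

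Of 17 tested red cell membrane and skeleton genes, 8 fell and 1 rose, with a median of −0.75. Slc14a1, the urea transporter that carries the Kidd blood group in humans, had 6.37 and 6.03 normalised counts in Tw2pos, against 149 and 183 in Tw2neg (log2 fold change −4.53, limma adjusted p = 0.000777). It averaged below the filter in Tw2pos and entered the test through Tw2neg, where it was high. Rhd, the partner of Rhag in the Rh complex, had 0 and 3 reads in Tw2pos and 45 and 43 in Tw2neg. Aqp1, the water channel, which capillary endothelium also carries, had 6538 and 3800 normalised counts in Tw2pos, against 42871 and 13368 in Tw2neg (−2.26, adjusted p = 0.0292). Without Tw2pos replicate 2 that call ended (0.132). The gene that rose was Add2, beta adducin of the membrane skeleton, with 195 and 141 normalised counts in Tw2pos, against 54.5 and 20.0 in Tw2neg (2.29, adjusted p = 0.0173). Its call ended without Tw2pos replicate 1 (0.0673). Cd47, present on nearly all cells, had 1105 and 1234 normalised counts in Tw2pos, against 1038 and 1312 in Tw2neg, and did not pass. Alas1, Sox6, Gata2, Gfi1b, Add2, Rhd and Hebp1 were singled out after their values were seen.

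Of 11 other erythroid genes tested, 5 fell and 2 rose, with a median of −1.19. Hemgn, a nuclear protein of erythroid precursors, had 1 read in each Tw2pos library and 45 and 36 in Tw2neg (limma adjusted p = 0.00381). Car1, red cell carbonic anhydrase, had 0 and 2 reads in Tw2pos and 43 and 33 in Tw2neg (limma adjusted p = 0.00975). Hemgn and Car1 averaged below the filter in Tw2pos and entered the test through Tw2neg, where they were higher. The 2 that rose were Hebp1 and Rhbdf1, a rhomboid-like protein whose locus borders the alpha globin cluster (log2 fold change 1.61 for Rhbdf1, limma adjusted p = 0.00794). Hebp1, a haem-binding protein (1.85, adjusted p = 0.0107), did not pass without Tw2pos replicate 2 (0.0680). Of 11 globin genes, 7 were listed at 0 in all 4 libraries, the adult Hba-a1, Hba-a2, Hbb-bs and Hbb-bt among them. Gapdh, which every cell uses, stood at only 45.9 and 63.9 normalised counts in Tw2pos and at 135 and 106 in Tw2neg, so a listed 0 may not mean absent RNA, and no globin was tested. Genes that share sequence with close copies are uncertain in this table.

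Of 17 tested genes of iron uptake, storage and sensing, 2 rose and 2 fell, with a median of 0.10. Steap3, the ferrireductase that works beside the transferrin receptor in endosomes, rose where Tfrc fell, with 3275 and 3137 normalised counts in Tw2pos, against 1173 and 682 in Tw2neg (log2 fold change 1.84, limma adjusted p = 0.00537). Fam132b, which encodes erythroferrone, an iron-regulating hormone first described in erythroblasts, fell, with 1209 and 1731 normalised counts in Tw2pos, against 5812 and 3735 in Tw2neg (−1.69, limma adjusted p = 0.00829). Its level in the other line was 6752 CPM in Pax7pos, against 6.19 CPM in Pax7neg. The ferritin heavy chain Fth1 and haem oxygenase Hmox1 were the most abundant of the list, and neither passed (log2 differences of 0.31 and 0.25, below 0 with library total scaling or quantile normalization).

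**Figure D3:**
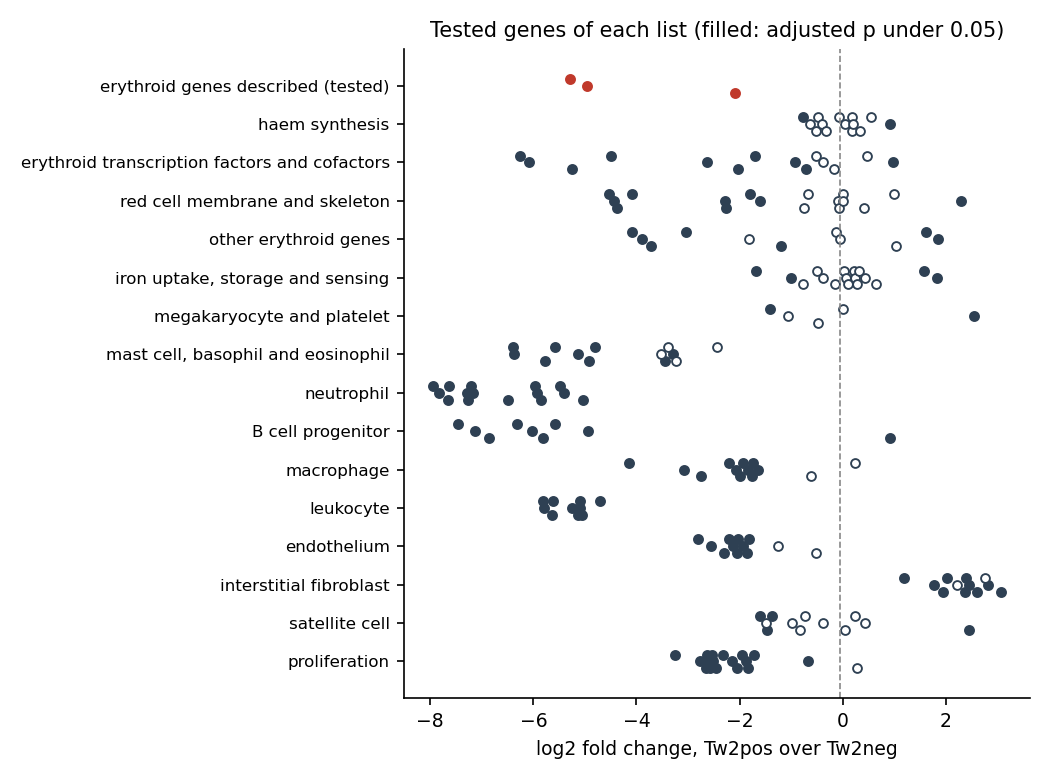
Log2 fold change of Tw2pos over Tw2neg for the tested genes of each list, 1 point a gene, filled where the adjusted p is under 0.05; the dashed line is the median of all genes. The 3 tested genes (red) stand at −5.29, −4.95 and −2.10, haem synthesis genes centre on the dashed line, and neutrophil and leukocyte markers lie far to the left.

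Most tested markers of neutrophils, leukocytes, B cell progenitors, macrophages and endothelium were lower in Tw2pos. All 15 neutrophil markers fell, with a median of −7.18, and their summed level was 762 and 578 normalised counts in Tw2pos, against 86796 and 78398 in Tw2neg. All 10 leukocyte markers fell (median −5.19), with sums of 885 and 1397 in Tw2pos and 35456 and 60188 in Tw2neg. Of 9 B cell progenitor genes tested, 8 fell. The other gene, Ebf1, which mesenchymal cells also express, rose (0.92), although not with library total scaling or without either Tw2pos library (adjusted p = 0.0660 without replicate 1 and 0.167 without replicate 2). Rag1 had no read in Tw2pos and 86 and 55 in Tw2neg. Igll1 and Rag2 also had none in Tw2pos, but only 10 and 6 and 3 and 5 reads in Tw2neg, too low to test. Vpreb1, also too low to test, had 5 and 2 reads in Tw2pos and 9 and 12 in Tw2neg. Of 13 macrophage markers 11 fell (median −1.94), and of 12 endothelial markers 10 fell (median −2.04). Several of the endothelial calls, and that of the macrophage gene Spic, ended with 1 library left out. The part of these cells in the erythroid values was not tested.

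Megakaryocytes, mast cells and eosinophils also use Gata1. Of 14 platelet and megakaryocyte genes, 5 were abundant enough to test, of which 1 rose, 1 fell and 3 did not pass. Pf4 fell, with 96 and 111 reads in Tw2pos and 573 and 309 in Tw2neg (log2 fold change −1.40, limma adjusted p = 0.0222). That call ended without either Tw2pos library. Gp1bb rose, with 31 and 30 reads in Tw2pos and 7 in each Tw2neg library (2.55, limma adjusted p = 0.00772). Platelet-restricted Gp6, with no read in any of the 4 libraries, was the only gene of the list at 0 throughout. Of 13 mast cell, basophil and eosinophil genes tested, 9 fell and 4 did not pass (median −4.81), with sums of 117 and 778 normalised counts in Tw2pos, against 6372 and 9729 in Tw2neg. Prg2, the eosinophil major basic protein, averaged 59.2 ± 45.9 in Tw2pos and 2787 ± 547 in Tw2neg (SD, n = 2 each). The part of these cells in the Gata1 value was not tested. Of 18 proliferation genes 17 fell, with a median of −2.39. Their sums were 2063 and 1602 normalised counts in Tw2pos, against 6171 and 8093 in Tw2neg. Some proliferation calls, and some of the mast cell list, ended with 1 library left out. The part of the proliferation genes in the Tfrc value was not tested.

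The genes nearest in pattern were sought for each tested gene by the Euclidean distance between centred log2 values over the 4 Twist2 libraries. Alas2 and Slc4a1 lay 0.368 apart, and Tfrc lay 3.42 from Alas2 and 3.18 from Slc4a1. Nearest to Alas2 were Ipcef1 (0.446), Gpr97, an adhesion receptor of granulocytes (0.471), and Gapt (0.503). Nearest to Slc4a1 were Gpr97 (0.214), the organic anion carrier Slco4c1 (0.243) and Nlrp12, a myeloid NOD-like receptor (0.534). Nearest to Tfrc were Dclre1c, the Artemis nuclease (0.0347), Adrbk1, a G protein-coupled receptor kinase (0.0602), and the calcium channel Orai1 (0.0907). Likeness over 4 libraries is a description only.

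Alas2 and Tfrc could be followed into the Pax7 line. Alas2 was ordered Tw2neg, Pax7neg, Pax7pos and Tw2pos from high to low, with the counting intervals of Pax7pos and of the higher Tw2pos library (1.75 to 3.92 CPM) overlapping. Tfrc was lowest in Tw2pos and above 60 CPM in each of the other libraries. Alas2 reached 10 CPM only in the Tw2neg and Pax7neg libraries, so it entered the comparisons below through the unlabelled groups, where it was high. That choice favours a lower level in labelled cells. Tfrc was above 10 CPM in every library. The comparisons below share libraries, and their values are given side by side.

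Alas2 had 2.68 and 1.07 CPM in Tw2pos, 76.5 and 62.1 CPM in Tw2neg, 4.91 CPM in Pax7pos and 18.9 CPM in Pax7neg. Its 95% counting interval was 3.61 to 6.53 CPM in Pax7pos, from 47 reads, and 16.5 to 21.5 CPM in Pax7neg, from 235 reads. Tfrc had 22.3 and 26.7 CPM in Tw2pos, 84.6 and 127.5 CPM in Tw2neg, 64.6 CPM in Pax7pos and 84.4 CPM in Pax7neg. For Tfrc in Pax7neg, the counting interval of 79.3 to 89.6 CPM includes the lower Tw2neg library. Alas2 in Pax7neg lay well below both Tw2neg libraries.

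**Figure D4:**
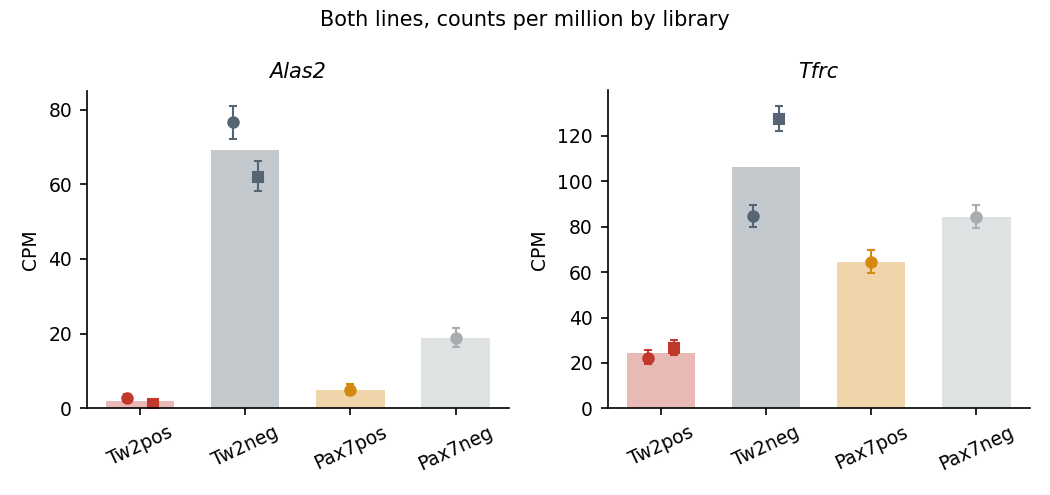
CPM of Alas2 (left) and Tfrc (right) by group; points are libraries with 95% counting intervals, and bars are group means (n = 2 in the Twist2 groups, n = 1 in the Pax7 groups). Alas2 reaches 76.5 and 62.1 CPM in Tw2neg and 18.9 or less elsewhere, and Tfrc is at 22.3 and 26.7 CPM in Tw2pos.

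Between Tw2pos and Pax7pos, Tfrc was lower in the Twist2-labelled cells, with a log2 fold change of −1.37 on CPM plus 1 (SE 0.36, limma adjusted p = 0.0129). It was the 1 of 2 genes called, in a comparison where 25.7% of 4790 genes were called lower. The call ended without Tw2pos replicate 1 (−1.24, adjusted p = 0.103, where the 11 other settings ranged from 0.000508 to 0.103). Quantile normalization moved the split of all calls to 995 lower of 1847, against 1229 of 2853. Alas2 had a log2 difference of −1.10 with a 95% interval of −2.20 to 0.01 and did not pass (adjusted p = 0.0779). It did pass with TMM factors (−1.36, adjusted p = 0.0336) and after quantile normalization (−1.59, 0.0321). Tw2neg enters this comparison only through the estimate of spread, so Alas2 also passed without either Tw2neg library at an unchanged −1.10. Over its 11 other settings the adjusted p ran from 0.0321 to 0.50. The lone Pax7 libraries were assumed to vary like the Twist2 libraries. Neutrophil markers ran the other way from Alas2, with 14 of them summing to 61.4 and 46.1 CPM in Tw2pos, against 26.5 CPM in Pax7pos, and 10 leukocyte markers to 71.5 and 113 CPM in Tw2pos, against 44.0 CPM in Pax7pos. Proliferation genes, by contrast, were lower in Tw2pos, where 10 of them summed to 88.6 and 58.2 CPM, against 248 CPM in Pax7pos. Their part in these values was not tested.

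Between the unlabelled fractions, neither gene was called, where limma called 0.230% of 4790 genes in both directions. Alas2 had a log2 difference of 1.81 for Tw2neg over Pax7neg (SE 0.48, 95% interval 0.71 to 2.92, adjusted p = 0.156). Of the 2 genes it alone had an unadjusted p under 0.05, and edgeR on the reads called 0 as well. Alas2 passed without Tw2neg replicate 1 (1.67, adjusted p = 0.0421) or replicate 2 (1.96, 0.0311), and its adjusted p ran from 0.0311 to 0.294 over 11 other settings. Of the 4790 genes, 1038 were called without Tw2neg replicate 1 and 855 without replicate 2, against 11 with all libraries. Tfrc had a log2 difference of 0.30 (95% interval −0.54 to 1.13, adjusted p = 0.747). Neutrophil markers summed to 6929 and 6231 CPM in Tw2neg, against 2892 CPM in Pax7neg, in the same direction as Alas2. The mast cell, basophil and eosinophil list did so too, at 447 and 687 against 292 CPM. Leukocyte markers, at 2847 and 4812 CPM in Tw2neg, lay on both sides of the 3401 CPM of Pax7neg. So did B cell progenitor genes, at 498 and 1028 against 823 CPM. Macrophage markers went the other way, at 2221 and 1880 CPM in Tw2neg against 2688 CPM in Pax7neg. The part of these cells in the Alas2 value was not tested.

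Within the Pax7 line there is no replicate and no test. Alas2 was 4.91 CPM in Pax7pos and 18.9 CPM in Pax7neg, a log2 difference of −0.95 on CPM plus 10. Tfrc was 64.6 CPM in Pax7pos and 84.4 CPM in Pax7neg, a log2 difference of −0.34. Neither reached a size of 2, which 18.4% of 4939 genes did, 14.6% in the lower direction. Neutrophil markers summed to 26.5 CPM in Pax7pos, against 2892 CPM in Pax7neg, and their part in these values was not tested. On CPM plus 1 the differences were −1.75 for Alas2 and −0.38 for Tfrc.

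The gap between labelled and unlabelled cells was wider in the Twist2 line for both genes. Alas2 entered this test through the unlabelled groups only, so the direction of its gap was favoured by the choice of genes. For Alas2 the log2 difference on CPM plus 1 was −4.66 in the Twist2 line and −1.75 in the Pax7 line, and the lines differed by −2.91 (SE 0.67, 95% interval −4.47 to −1.35, limma adjusted p = 0.0137). For Tfrc it was −2.04 in the Twist2 line and −0.38 in the Pax7 line, and the lines differed by −1.66 (SE 0.51, 95% interval −2.84 to −0.48, limma adjusted p = 0.0365). Proliferation genes summed to 88.6 and 58.2 CPM in Tw2pos, 362 and 494 CPM in Tw2neg, 248 CPM in Pax7pos and 240 CPM in Pax7neg, and their part in the Tfrc difference was not tested. Both were called, in a test where 12.8% of 4790 genes were called in that direction. TMM scaling moved the split of all calls to 1104 in that direction of 2063, against 615 of 1736. Without Tw2pos replicate 2 neither passed (adjusted p = 0.0722 for Alas2 and 0.110 for Tfrc), and without Tw2pos replicate 1 Tfrc did not (0.184). Tfrc also missed the threshold with a pseudocount of 10 (0.0502), with quantile normalization (0.0643) and without a variance trend (0.0510). Over 11 other settings the adjusted p ran from 0.00421 to 0.0722 for Alas2 and from 0.00113 to 0.184 for Tfrc. The authors' deposited table gives log2 ratios to Tw2neg of −4.61 for Tw2pos, −3.57 for Pax7pos and −1.82 for Pax7neg in Alas2, and of −2.07, −0.71 and −0.33 in Tfrc.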

How the data were processed

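RNA sequencing was summarised in 6 samples. TopHat2 2.0.0, DESeq2 1.6.3 and the builds GRCm38 and mm10 are listed in the submitters' processing notes, while no source used here gives the read counter, strandedness or annotation. The deposited normalised signal is gene counts divided by 1 size factor per library, and 100% of its values were whole reads within a tolerance of 0.01. The deposited CPM values are reads scaled to an effective library size, with the Twist2 groups as means; each Twist2 library's CPM was rebuilt from its reads. The log2 ratios deposited by the authors equal those of the group CPM plus 1 for Alas2 and Tfrc.

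Tw2pos and Tw2neg were compared with limma 3.58.1 (R 4.3.3) on log2 of the normalised count plus 1 over 14155 genes averaging 10 or more, with a variance trend and Benjamini-Hochberg adjustment over all genes (threshold 0.05). This table holds 4 libraries. The other tests used CPM plus 1 in all 6 libraries over 4790 genes averaging 10 CPM or more, where the lone Pax7 libraries take their spread from the Twist2 groups. The authors chose the genes of the CPM table, and all 4939 reach 10 CPM in 3 or more libraries. Alternatives used edgeR 4.0.16 and DESeq2 1.42.0 on recovered reads. Counting intervals (exact Poisson or binomial, 95%) and the floor of 3 reads cover counting error only. Positions and exon lengths are from GENCODE M21.

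The members and lists were chosen with earlier results of these data known. Named from each list are the 2 genes with the highest mean and the 2 with the largest passing change, with exceptions stated; 1 gene that the rule names is not reported here. Scripts were tested on simulated data. A chi-square test of replicate reads gave 13.7 for each degree of freedom in Tw2pos and 69.6 in Tw2neg. Replicates were therefore kept apart in the tests. The pooled ratio of Klf1 sums their reads, and its interval does not cover scatter between replicates.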

Additional observations from a re-analysis of the deposited data

Results flagged for a closer look

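The difference between labelled and unlabelled cells was not the same in the 2 lines for Alas2, where it was more negative in the Twist2 line by −2.91 on the log2 scale (limma adjusted p = 0.0137, lower in 2 of 2 Tw2pos libraries than in Pax7pos). The call ended in 1 of 11 other settings, without Tw2pos replicate 2 (0.0722). It also differed for Tfrc, by −1.66 (limma adjusted p = 0.0365, lower in 2 of 2 Tw2pos libraries than in Pax7pos). That call ended in 5 of 11 other settings: with a pseudocount of 10 (0.0502), quantile normalization (0.0643) or no variance trend (0.0510), and without Tw2pos replicate 1 (0.184) or 2 (0.110). Each Pax7 group has 1 library. Alas2 reached 10 CPM only in unlabelled libraries, through which it entered this comparison. The Alas2 difference joins −1.10 for Tw2pos over Pax7pos with 1.81 for Tw2neg over Pax7neg, and neither passed alone. For Tfrc these were −1.37, which passed, and 0.30, which did not. The lower level in Tw2pos than in Pax7pos is thus only a part of each difference.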

How the results depend on the processing

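The falls of Alas2, Slc4a1 and Tfrc in Tw2pos against Tw2neg passed in each of the 15 other settings run, with log2 fold changes of −5.92 to −4.66, −5.66 to −4.11 and −2.54 to −1.80. The number of the 6 genes called was 3, and became 6 without a filter and 5 with edgeR and no filter, as more of them were tested. Leaving out 1 Twist2 library at a time gave 3 each time. With a replicate block on the number in the labels, 3 were called as well, with 1 residual degree of freedom. The labels do not say that the numbers pair samples; same-numbered deviations correlated at 0.263 across genes, and the block moved the count of all genes from 5470 to 6627. No paired analysis was possible for the comparisons with Pax7 libraries because those carry no replicate number. Library total scaling moved the median of all genes from −0.04 to −0.49, and quantile normalization to 0.10.

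In Tw2pos against Pax7pos, 1 of 2 genes was called, 2 with TMM scaling or quantile normalization, and 0 to 2 with 1 library left out. The median of all genes there was 0.41, 0.12 with TMM and −0.16 after quantile normalization, while Alas2 stood at −1.10, −1.36 and −1.59, below the median each time. In Tw2neg against Pax7neg 0 were called, and 0 to 1 with 1 library left out. In the difference between the lines 2 were called, 1 with a pseudocount of 10, quantile normalization or no variance trend, and 0 to 2 with 1 library left out.

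Over all genes, leaving out 1 library gave 2578 to 7370 calls against 5470 between Tw2pos and Tw2neg, 1635 to 3738 against 2853 for Pax7pos, 43 to 1038 against 11 for Pax7neg, and 935 to 3106 against 1736 for the difference between lines. Quantile normalization gave 1847 for Pax7pos and 958 for the difference. For Pax7neg the 11 became 1 with a pseudocount of 10, 17 with 0.5, 3 with no filter, 57 with TMM, 1 with quantile normalization, 0 with edgeR and 1 without a trend. The cause of these changes was not tested. Depth limits Gata1, Rhag and Klf1, whose Tw2pos libraries hold 0 or 1 reads.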
